A study of Mus musculus with 4 samples.

Results

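The small nucleolar RNAs (snoRNAs) and small Cajal body RNAs (scaRNAs) described here were followed through a transcription block in RAW264.7 cells, a mouse macrophage line. Members were chosen by their symbol, which begins with Snora, Snord or Scarna and a digit, and by their measured level, a mean of at least 1 CPM (a count as a share of all gene counts of its library, scaled to one total) over the 4 libraries. The rule took 27 of the 147 rows with such a symbol, out of 41324 genes in the table: 18 of 40 Snora rows, 5 of 98 Snord rows and 4 of 9 Scarna rows. Of the 120 rows left out, 84 had 0 counts in every library.

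Both kinds of snoRNA work as guides inside ribonucleoproteins that modify other RNAs in the nucleolus. Box C/D RNAs (Snord symbols) carry a C box near the 5′ end and a D box near the 3′ end and direct 2′-O-methylation, whereas box H/ACA RNAs (Snora symbols) end shortly after an ACA triplet and direct pseudouridylation. A few of them act in cleavage of the ribosomal RNA precursor, and scaRNAs guide modification of spliceosomal RNAs in Cajal bodies. In mammals most are cut out of the introns of host genes, and the mature particles are known as long-lived.

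Cells were sampled untreated and after 2, 4 and 6 h with actinomycin D (ActD), a DNA-binding drug that blocks transcription, at 10 µg/ml. One library was made at each time, so no time point had a replicate, and whether each time was a culture of its own is not in the labels. Per the labels the RNA was cytoplasmic and was freed of ribosomal RNA before directional library preparation. The libraries held 35669434, 38260540, 70289647 and 12762100 gene counts at 0, 2, 4 and 6 h, so the 6 h library was the shallowest. All 10 macrophage markers examined were measured, at mean levels of 26.3 to 2076 CPM, while no marker of T cells, B cells, fibroblasts, epithelium or red cells averaged more than 0.15 CPM and the 3 epithelial ones were at 0. Nuclear RNAs were present in this material: the nuclear long RNA Malat1 stood at 3065, 7198, 7863 and 9344 effective CPM at 0, 2, 4 and 6 h. Of 4 nuclear long RNAs in the slope test described below 0 rose and 2 fell, against 8.63% and 17.2% of all genes tested. Neat1 fell with 410, 269, 184 and 194 effective CPM and Kcnq1ot1 with 170, 159, 102 and 101. Malat1 and Firre did not pass, and Firre stood at 150% of untreated at 6 h (132% to 171%).

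Members of each class are shown with the motifs that define it. They are the abundant Snora73b, Snora57, Snord17 and Scarna6, and Snora23 and Snord15a for the steepest fitted slope past the test in their classes. Snord118 is added as a Snord RNA without an exact C box in its first 25 bases, though TGATGA occurs further in. The sequences are written 5′ to 3′ from GENCODE M21 transcripts on the mm10 build. Capitals mark ACA within the last 10 bases of the Snora RNAs, and TGATGA (C box) within the first 25 or CTGA (D box) within the last 25 bases of the Snord RNAs. Scarna6 was searched for all of them.
Snora73b, chr4:132352322-132352526, minus strand: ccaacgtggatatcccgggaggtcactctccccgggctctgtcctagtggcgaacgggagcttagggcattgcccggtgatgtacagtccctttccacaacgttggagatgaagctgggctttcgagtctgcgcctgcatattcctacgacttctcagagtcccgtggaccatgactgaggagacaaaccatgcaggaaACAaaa
Snora23, chr7:110046364-110046547, plus strand: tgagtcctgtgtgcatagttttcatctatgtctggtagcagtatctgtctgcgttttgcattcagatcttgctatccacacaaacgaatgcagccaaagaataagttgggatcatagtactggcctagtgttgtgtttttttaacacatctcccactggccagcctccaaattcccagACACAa
Snora57, chr19:8888538-8888685, minus strand: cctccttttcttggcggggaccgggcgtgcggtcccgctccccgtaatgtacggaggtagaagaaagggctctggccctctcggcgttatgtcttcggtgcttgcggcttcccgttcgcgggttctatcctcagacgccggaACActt
Snord17, chr2:144265979-144266216, minus strand: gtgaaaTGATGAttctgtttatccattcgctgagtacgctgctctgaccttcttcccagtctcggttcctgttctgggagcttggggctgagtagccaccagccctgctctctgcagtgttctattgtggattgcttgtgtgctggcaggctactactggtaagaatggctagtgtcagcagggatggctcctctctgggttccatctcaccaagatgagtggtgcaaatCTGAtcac
Snord15a, chr7:99482785-99482932, minus strand: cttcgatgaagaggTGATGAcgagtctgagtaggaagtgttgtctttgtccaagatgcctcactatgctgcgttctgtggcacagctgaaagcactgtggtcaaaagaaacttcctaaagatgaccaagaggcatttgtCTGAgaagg
Snord118, chr11:69073427-69073561, plus strand: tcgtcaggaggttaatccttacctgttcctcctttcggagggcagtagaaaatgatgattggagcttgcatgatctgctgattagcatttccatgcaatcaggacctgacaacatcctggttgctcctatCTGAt
Scarna6, chr1:87784556-87784820, plus strand: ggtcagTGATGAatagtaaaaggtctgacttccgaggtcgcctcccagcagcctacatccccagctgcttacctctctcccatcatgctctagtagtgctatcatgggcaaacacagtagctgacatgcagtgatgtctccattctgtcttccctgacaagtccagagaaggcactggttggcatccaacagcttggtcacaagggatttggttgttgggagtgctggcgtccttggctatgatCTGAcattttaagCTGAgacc

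Sequence features followed the class names. An ACA in the last 10 bases was found in 17 of 18 Snora members, and in 95.2% of all annotated Snora loci against 8.08% of Snord loci. The D box CTGA was found in the last 25 bases of 5 of 5 Snord members, and in 99.0% of all Snord loci against 14.3% of Snora loci. The exact C box TGATGA was found in the first 25 bases of 3 of 5 Snord members and of 70.7% of all Snord loci, and in 0 of 42 Snora loci. Scarna6 had both C/D motifs, and 1 of the 4 Scarna members had the terminal ACA.

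Length separated the Snord members from the Snord rows under the level cut, and the Snora rows of both kinds overlapped in length. The 27 members were 121 to 414 bases long, with a median of 137, and the 123 annotated loci under the cut were 64 to 149 bases long, with a median of 89. Over 120 bases lay 27 of 27 members and 27 of 123 loci under the cut. The 5 Snord loci over 120 bases in the annotation were the 5 Snord members, and 0 of 94 Snord loci under the cut were that long. The rule used levels, and the labels do not state what size range the extraction and library steps kept.

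**Figure D1:**
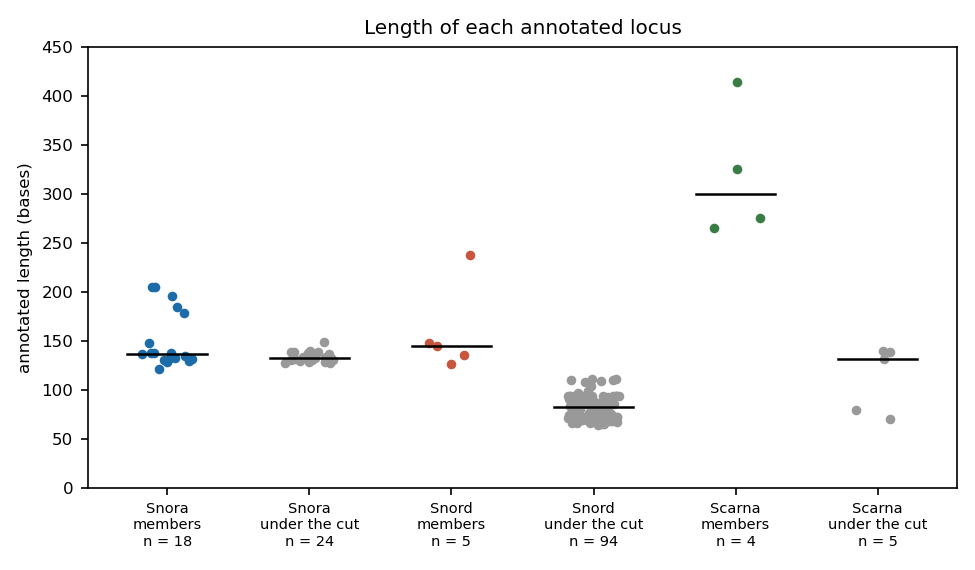
Annotated length in bases of each locus (points) by class, for members and for loci under the level cut, with a black bar at the median. The 5 Snord members lie above every Snord locus under the cut, while Snora loci of both kinds overlap.

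The cut divided few close cases. Snora70 averaged 1.29 CPM and Snora33 1.02 CPM just inside it, and Scarna3a averaged 0.725 CPM and Snora65 0.697 CPM just outside. Snora33, Snora70 and Snora81 would fall under the cut on the mean of the untreated, 2 h and 4 h libraries alone, so their membership rests on the 6 h library, where each was highest. The other 24 members pass without it.

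Levels were set on a common scale with TMM, edgeR's normalization, and are given as CPM of the effective library (effective CPM). The 27 members together had 650, 743, 1059 and 1928 effective CPM at 0, 2, 4 and 6 h. Relative to untreated the sum stood at 114% after 2 h, 163% after 4 h and 297% after 6 h (95% interval 291% to 302%, which like all intervals here covers counting error only). The Snora members summed to 324, 319, 475 and 927 effective CPM, the Snord members to 67.9, 70.0, 110 and 201, and the Scarna members to 258, 354, 473 and 801. Each class was highest at 6 h, and Scarna alone had its interval above the untreated level at 2 h. Of the Scarna members only Scarna2 lay above that level at 2 h, at 155% (150% to 160%). Scarna6 and Scarna13 spanned it, and Scarna10 lay below it, at 68.4% (54.1% to 86.5%). The 120 rows under the cut summed to 6.67, 5.61, 4.20 and 8.09 effective CPM, with an interval at 6 h of 94.5% to 155% of untreated.

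A pair of RNAs held most of the counts. Scarna2 and Snora73b made up 60.3% of the members' mean CPM, and with Scarna6, Snord17, Snora74a and Scarna13 the share was 87.6%. Per kilobase of annotated length, Snora73b averaged 1554 CPM, Scarna2 828, Snora74a 425, Snord17 378 and Scarna6 341, and the lowest member was Snora81 with 7.66 CPM per kilobase. Without Scarna2 and Snora73b the other 25 members summed to 280, 283, 398 and 786 effective CPM at 0, 2, 4 and 6 h.

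The trend of each gene was tested as a straight line of log2 level on time over the 4 libraries, by edgeR's quasi-likelihood test with Benjamini-Hochberg adjustment over 10837 genes. It called 10 of 27 members as risen at an adjusted p under 0.05, against 8.63% of all genes tested. It called 0 members as fallen, against 17.2% of all genes, and 0 had a slope below 0 at an unadjusted p under 0.05. DESeq2's Wald test called 12 risen, against 13.7% of all genes, and 0 fallen. The 10 were Snora17, Snora23, Snora52, Snora73b, Snora74a, Snord15a, Snord17, Scarna2, Scarna6 and Scarna13. All 27 fitted slopes were above 0, with a median of 0.22 log2 per h (0.17 for Snora, 0.25 for Snord and 0.25 for Scarna) and a range of 0.06 to 0.50, while the median over all genes tested was 0.00. These calls depended on single libraries: without the 6 h library 3 members rose (Scarna2, Snora74a and Snord17), against 10.5% of all genes tested, which is near the members' own share. There 13 of 27 slopes lay below 0, 3 of them at an unadjusted p under 0.05, and the median was 0.04. Without the 4 h library 4 rose, against 0.231% of all genes, and without the untreated library 23 rose, against 7.25%.

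**Figure D2:**
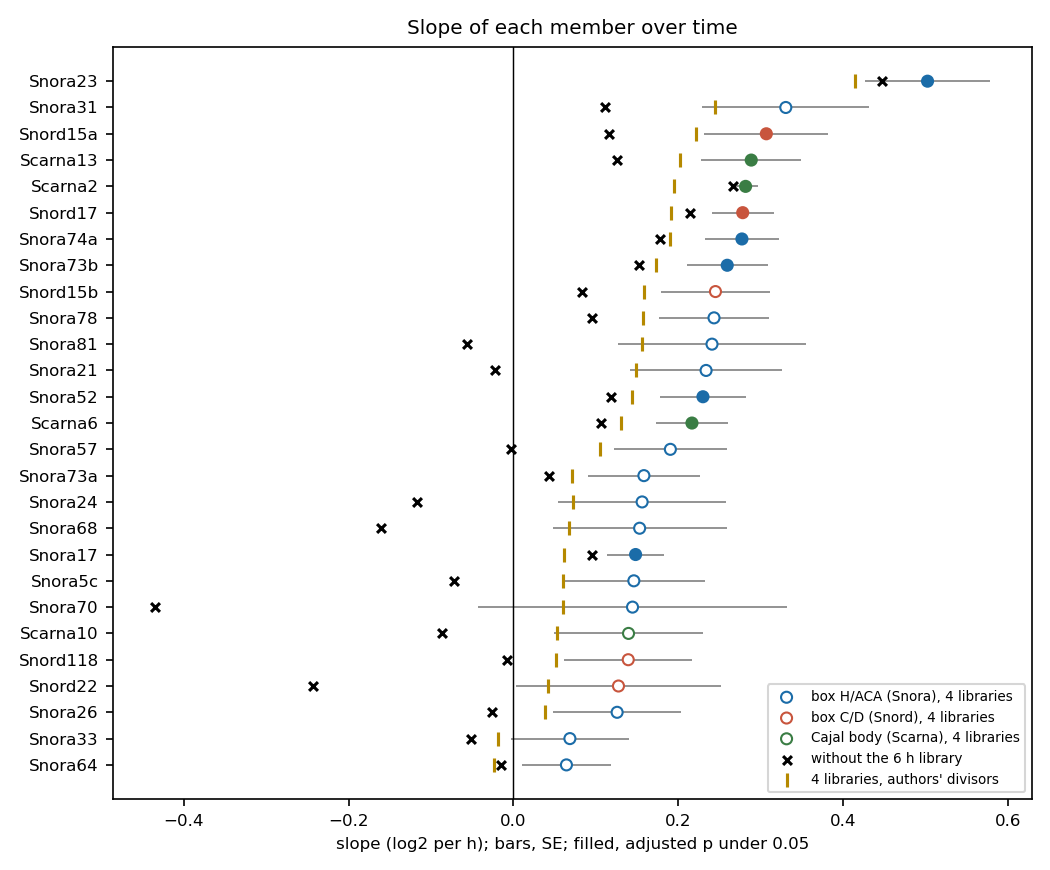
Slope in log2 per h of each member with its SE (bars), filled where the edgeR adjusted p was under 0.05, with the slope without the 6 h library (crosses) and with the authors' library divisors (ticks). All 27 circles lie above 0; 13 crosses and 2 ticks lie below it.

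Most of the movement fell in the last interval. The median member changed by -0.04 log2 from 0 to 2 h, by 0.28 from 2 to 4 h and by 1.11 from 4 to 6 h, while the median of all genes tested was 0.01, 0.00 and 0.00. The direction of the first step turned with the scaling, with medians of 0.36 log2 for total counts and -0.33 for the authors' divisors. The median change from untreated at 4 h, 0.17 log2, was -0.13 with ribosomal protein scaling and -0.30 with the authors' divisors. From 4 to 6 h all 27 members moved up, as did 50.3% of all genes tested, and in 25 of the 27 the counting interval of the ratio lay above 100%. All 27 members were highest at 6 h, as were 30.7% of all genes tested. Among the 24 members that pass the level cut without the 6 h library, 24 moved up from 4 to 6 h, with a median of 1.08 log2.

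Counted by size, 18 of 27 members were over 2-fold higher than untreated at 6 h, against 2.83% of all genes tested, and 0 were over 2-fold lower, against 16%. The count over 2-fold higher at 6 h was 24 with total counts (3.74% of all genes), 13 with ribosomal protein scaling (1.67%) and 10 with the authors' divisors (1.31%). At 4 h, 2 members were over 2-fold higher, against 1.41%, and 1, Snora70, was over 2-fold lower, against 14.8%. At 2 h, 0 were over 2-fold higher, against 1.09%, and 0 over 2-fold lower, against 9.07%. The test for a bend, the quadratic term of time by edgeR's quasi-likelihood test with Benjamini-Hochberg adjustment, called 17 of 27 members as bent upward, against 19% of all genes tested. The 17 were 10 Snora, 4 Snord and 3 Scarna members. They include Snora70 and Snora81, which pass the level cut only through the 6 h library. Among the 24 members that pass without it, 16 were over 2-fold higher at 6 h, 10 rose by the slope test and 15 bent upward. With total counts 6 members bent upward, against 6.43% of all genes, and with DESeq2's Wald test 11, against 8.74%. With ribosomal protein scaling 22 did, against 26.9%, and with the authors' divisors 20, against 30.6%. With 1 residual degree of freedom this test has no run without a library.

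**Figure D3:**
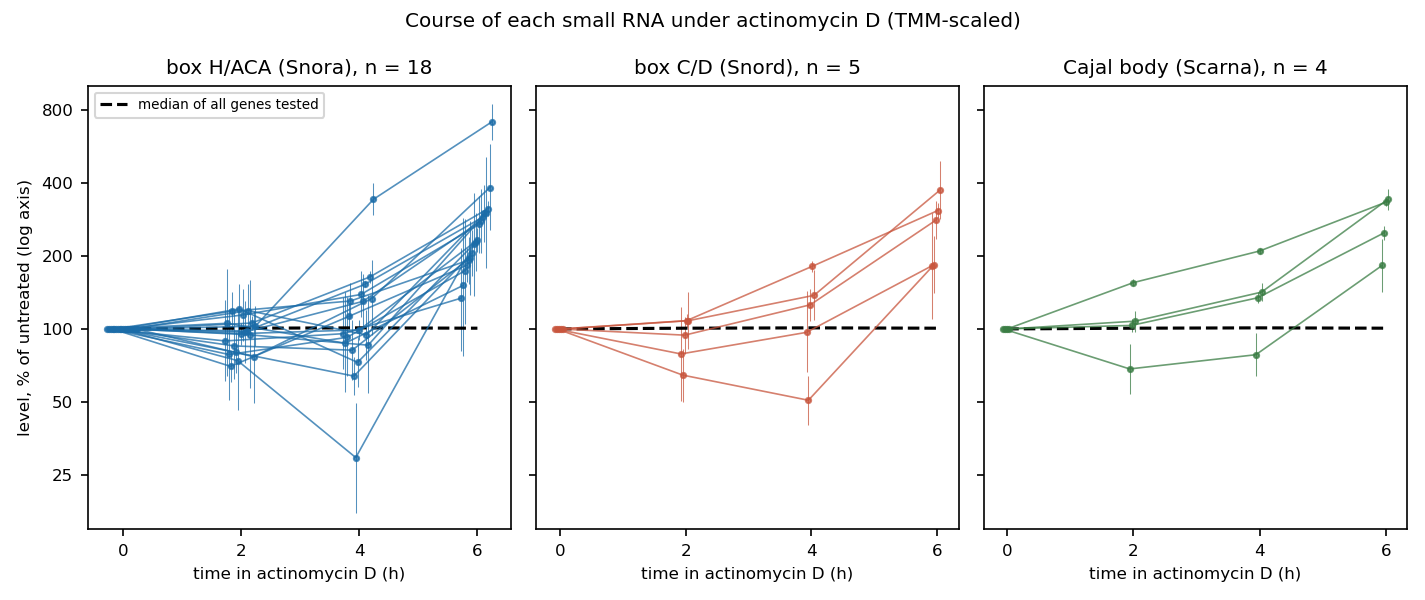
Level of each member as a percentage of the untreated library (log axis) against hours in actinomycin D, by class, with 95% counting intervals; points are shifted sideways so that they can be told apart. Every member is highest at 6 h, and the dashed median of all genes tested stays near 100%.

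**Figure D4:**
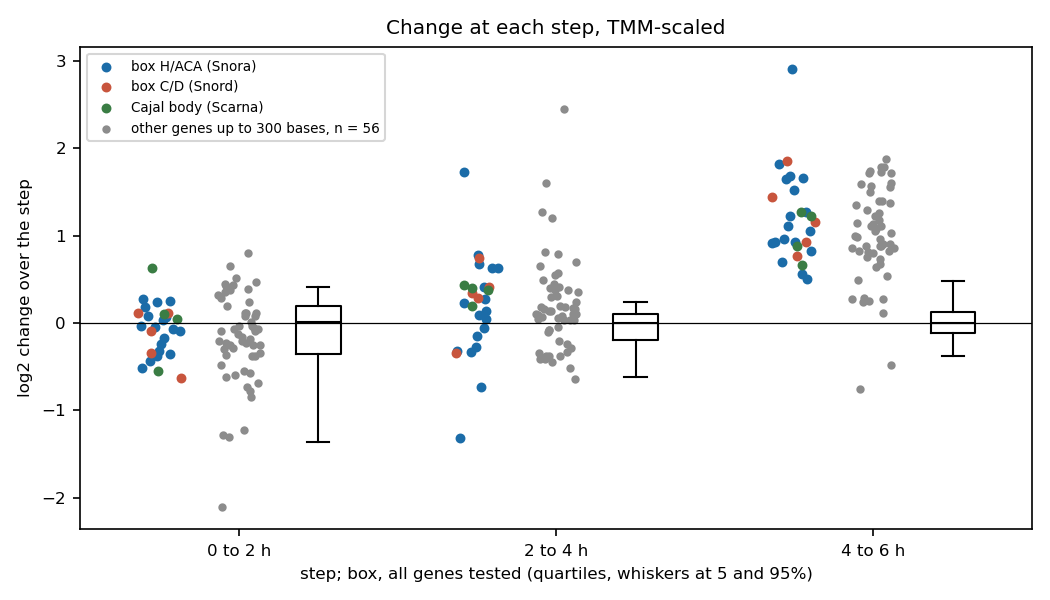
Log2 change over each 2 h step for the members (left, coloured by class), for 56 other tested genes with no annotated transcript over 300 bases (middle, grey) and for all genes tested (box, quartiles with whiskers at 5% and 95%). From 4 to 6 h all members lie above 0, with a median of 1.11, and 54 of the 56 other short genes do.

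Among the scaRNAs, Scarna2 had the straightest course. It guides methylation of the spliceosomal U2 RNA in human cells. It had 170, 264, 356 and 566 effective CPM at 0, 2, 4 and 6 h (5184, 11438, 27066 and 6924 counts). Each time was above the one before, and 6 h stood at 332% of untreated (321% to 345%). Its slope was 0.28 ± 0.02 log2 per h (SE; edgeR, Benjamini-Hochberg adjusted p = 0.0145), and its bend had an adjusted p of 0.820 by edgeR. It was the member furthest above the untreated level at 2 h, at 155% (150% to 160%).

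The other scaRNAs turned upward late. Scarna6 had 61.7, 63.8, 82.9 and 153 effective CPM, and Scarna13, which guides pseudouridylation of spliceosomal RNAs in human cells, had 21.2, 22.8, 30.0 and 72.2 effective CPM. Both were near the untreated level at 2 h and at 248% and 341% of it at 6 h, with slopes of 0.22 ± 0.04 and 0.29 ± 0.06 log2 per h (edgeR adjusted p = 0.0369 and 0.0387). Scarna10, which holds both kinds of guide and acts on the spliceosomal U5 RNA in human cells, had 4.93, 3.37, 3.86 and 8.99 effective CPM. It was below untreated at 2 and 4 h and at 183% of it at 6 h, and its slope did not pass (edgeR adjusted p = 0.272), while its bend did (0.00237).

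The box H/ACA RNAs included Snora73a and Snora73b, which act in processing of the ribosomal RNA precursor. Snora73b had 200, 196, 305 and 577 effective CPM at 0, 2, 4 and 6 h. Relative to untreated these were 98.1%, 152% and 288%, and the fitted slope was 0.26 ± 0.05 log2 per h (edgeR, adjusted p = 0.0334). Snora73a had 11.8, 8.25, 13.2 and 21.5 effective CPM, was lowest at 2 h, and its slope did not pass (edgeR adjusted p = 0.136). The pair are 96.6% identical over 205 aligned bases and lie inside the same genes, Rcc1 and Snhg3, so their split of reads is uncertain, and both also face an exon of Gm17300 on the other strand.

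Snora23 had the steepest slope of the members. It had 6.14, 6.31, 21.0 and 43.7 effective CPM at 0, 2, 4 and 6 h (187, 273, 1594 and 534 counts). Its level did not differ from untreated beyond counting error at 2 h, at 103% (84.9% to 124%), and was 342% at 4 h (294% to 400%) and 711% at 6 h (601% to 844%). The slope was 0.50 ± 0.08 log2 per h (edgeR adjusted p = 0.0242). It was 1 of the 2 members over 2-fold higher at 4 h, with Scarna2. Without the 4 h library the slope was 0.50 and without the 6 h library 0.45, both just short of the threshold (edgeR adjusted p = 0.0540 and 0.0509; over the left-out libraries the slope ran from 0.45 to 0.69).

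The other H/ACA members past the slope test, and the abundant Snora57, differed in course. Snora74a, a guide for pseudouridylation of the large ribosomal RNA, had 48.8, 51.6, 80.0 and 153 effective CPM, and its fitted slope of 0.28 ± 0.04 log2 per h passed (edgeR, adjusted p = 0.0266). Snora57 had 638, 868, 1577 and 595 counts at 0, 2, 4 and 6 h, or 95.7% (86.3% to 106%), 99.1% (90.3% to 109%) and 232% (207% to 260%) of untreated. On the TMM scale it was flat over the first 3 libraries and high in the last. As CPM of all gene counts it had 17.9, 22.7 and 22.4 in those 3. The authors' deposited table gives it a half-life of 7.67 h over them. The slope of Snora57 did not pass (edgeR adjusted p = 0.0974) and its bend did (0.00280). Snora17 had 192, 323, 624 and 148 counts, which put it at 118%, 130% and 192% of untreated at 2, 4 and 6 h. Snora52 had 3.58, 4.09, 4.96 and 9.65 effective CPM. On the TMM scale both climbed at every step, with slopes of 0.15 ± 0.03 and 0.23 ± 0.05 log2 per h (edgeR adjusted p = 0.0449 and 0.0426). Their intervals at 2 h spanned the untreated level, at 98.6% to 142% and 89.4% to 146%. Neither slope passed with ribosomal protein scaling or the authors' divisors, and that of Snora17 also did not with total counts. Without the 6 h library the slopes were 0.10 and 0.12 log2 per h.

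The low H/ACA members were the most uneven. Snora70 had 1.25, 0.924, 0.369 and 2.78 effective CPM from 38, 40, 28 and 34 counts, the lowest 4 h value of any member relative to untreated, at 29.5% (17.5% to 49.4%), before 223% at 6 h (136% to 363%). Snora33, with 28, 42, 61 and 17 counts, stood at 151% at 6 h with an interval of 77.6% to 286%, so no difference was detectable at this depth. The 9 Snora members not yet named with levels (Snora5c, Snora21, Snora24, Snora26, Snora31, Snora64, Snora68, Snora78 and Snora81) lay between 76.9% and 121% of untreated at 2 h, between 63.9% and 133% at 4 h and between 134% and 382% at 6 h. Snora31 was the highest of these at 6 h and Snora64 the lowest, with an interval of 81.5% to 216%. None of the 9 slopes passed.

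The 5 box C/D members were led by Snord17, a guide for methylation of the large ribosomal RNA. It had 51.5, 55.7, 93.3 and 158 effective CPM at 0, 2, 4 and 6 h (1569, 2413, 7083 and 1936 counts). On this scale it was higher at each time than at the one before. Its slope was 0.28 ± 0.04 log2 per h (edgeR adjusted p = 0.0212). Snord15a and Snord15b, guides of the large ribosomal RNA that share the host Rps3 and are 65.6% identical, had 3.05, 3.30, 4.20 and 11.4 and 7.52, 7.09, 9.46 and 21.1 effective CPM. They stood at 372% and 280% of untreated at 6 h, and Snord15a passed while Snord15b did not (edgeR adjusted p = 0.0486 and 0.0576), and whether the pair differ was not tested.

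Snord22 and Snord118 act in processing of the ribosomal RNA precursor, as known from frog oocytes. Snord22 had 4.40, 2.84, 2.24 and 8.09 effective CPM, or 64.5% (50.1% to 83.1%), 50.9% (40.3% to 64.3%) and 184% (140% to 240%) of untreated after 2, 4 and 6 h. It was the Snord member furthest below the untreated level at 2 and 4 h. Its bend passed (edgeR adjusted p = 0.00354) and its slope did not (0.449). Snord118 had 41, 46, 99 and 30 counts and stood at 182% at 6 h (110% to 299%), and neither its slope nor its bend passed.

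Counting intervals on the TMM scale give a division of the members at each time. At 2 h, 2 lay above the untreated level, 4 below and 21 spanned it. At 4 h 12 lay above, 5 below and 10 spanned it, and at 6 h 25 lay above and 2 spanned it. The same shares over all genes tested were not computed. These counts hold for that scale only. The median member change at 4 h was 0.17 log2 on it, -0.13 with ribosomal protein scaling and -0.30 with the authors' divisors. Across the 27 members, which share the 4 libraries, Spearman's rho with log2 mean CPM was 0.58 for the slope and -0.35 for the step from 4 to 6 h. With annotated length it was 0.50 for the slope and -0.24 for that step, and with GC content 0.13 and -0.20.

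Host genes, taken by annotated position, gave a comparison. Whether a member and its host came from the same primary transcript was not tested. In GENCODE M21, 21 members lie inside a gene of the table on the same strand, and for 20 of them the host was tested, 18 hosts in all, 8 of the pairs having a ribosomal protein gene as host. Of the hosts 6 rose, 0 fell and 12 did not pass, against 8.63% of all genes tested that rose and 17.2% that fell. The median host slope was 0.05 log2 per h with a range of -0.16 to 0.17. The member's slope was above its host's in 17 of 20 pairs, with a median difference of 0.19 log2 per h. Without the 6 h library it was above in 8 of 20, with a median difference of -0.03. Library scaling shifts both genes of a pair alike, so it cannot test this difference.

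Small RNA and host lay furthest apart at Ipo7 and Atg16l1. Snora23 stood at 711% of untreated at 6 h and its host Ipo7, a nuclear import receptor gene, at 118%. Scarna6 stood at 103%, 134% and 248% after 2, 4 and 6 h, while its host Atg16l1, an autophagy gene, stood at 47.2%, 47.4% and 50.2%. In the other direction Snora24 and its host Snhg8 had slopes of 0.16 and 0.17 log2 per h, though their courses differed. After 2, 4 and 6 h Snora24 stood at 121%, 72.8% and 227% of untreated and Snhg8 at 119%, 149% and 207%. Snora24 also overlaps an exon of Snhg8. Snora73a and Snora73b lie inside both Rcc1, taken as the host because it had the most counts, and the long non-coding Snhg3. At 6 h Rcc1 stood at 83.8% of untreated and Snhg3 at 122% (95.3% to 154%), with slopes of -0.04 and 0.05 log2 per h, neither past the test.

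**Figure D5:**
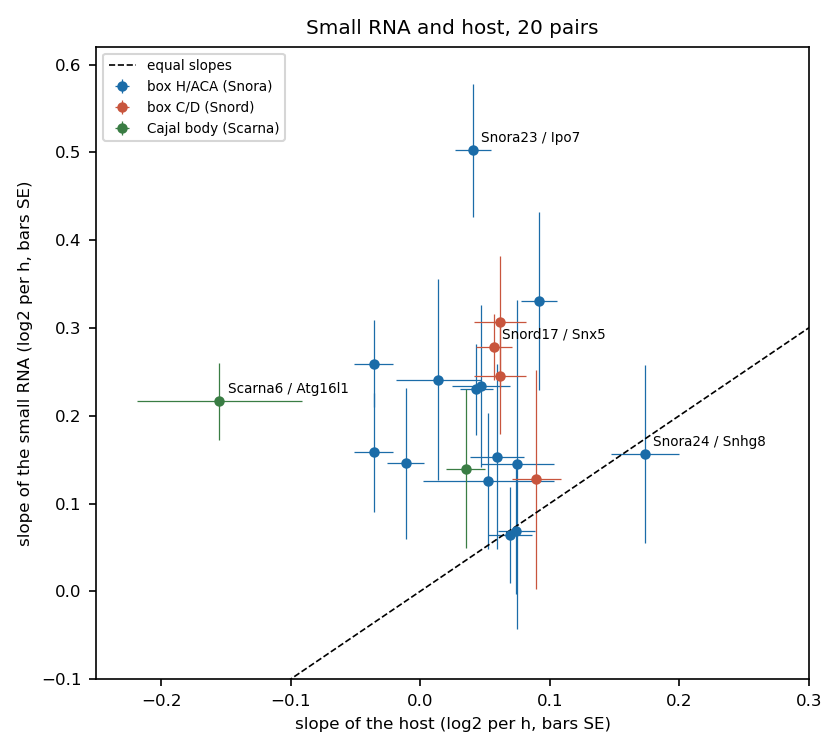
Slope of each small RNA against the slope of its host, both in log2 per h with SE bars, for 20 pairs; the dashed line marks equal slopes. Points lie above the line in 17 pairs, with Snora23 in Ipo7 highest.

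Annotated exons bear on this count. Of the 27 members, 15 overlap an exon of another gene on the same strand, 12 of them an exon of their own host, and in 8 the overlap is only with transcripts annotated as retained introns. The sources used here do not state how reads shared by 2 genes were counted. Without these 15 members, 7 of the remaining 12 rose and 7 bent upward, against 8.63% and 19% of all genes tested. The median slope of the 12 was 0.25 log2 per h.

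For the genes of the proteins in these particles the test called no rise, beside the 8.63% of all genes that rose and the 17.2% that fell. Of the box C/D core proteins, Nop56 and Nop58 fell, with 193, 153, 122 and 101 and 214, 194, 163 and 131 effective CPM at 0, 2, 4 and 6 h (edgeR adjusted p = 0.0145 and 0.0187), and 0 of 4 rose. The methyltransferase Fbl had 115, 120, 119 and 107 effective CPM and did not pass. Of the 4 box H/ACA core genes 0 passed in either direction. At 6 h Nop10 stood at 139% of untreated (127% to 151%), the pseudouridine synthase Dkc1 at 129% (122% to 135%), Nhp2 at 120% (114% to 125%) and Gar1 at 92.6% (84.9% to 101%). Of 21 genes for assembly and maturation 0 rose and 7 fell: the assembly factors Nufip1, Znhit3 and Shq1, the Cajal body genes Wrap53 and Coil, the cap methyltransferase Tgs1 and Dbr1. Dbr1, the enzyme that opens intron lariats, had 28.6, 10.4, 4.54 and 3.76 effective CPM (edgeR adjusted p = 0.0208), and Nufip1 had 44.9, 24.8, 10.3 and 5.72 (0.0145).

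Several other small RNAs moved in the same interval as the members. Terc, the telomerase RNA and itself an H/ACA RNA, had 39.8, 43.6, 55.0 and 89.4 effective CPM and rose (edgeR adjusted p = 0.0279). Rn7sk, the RNA that holds an elongation factor inactive, had 2586, 2150, 2793 and 4725 effective CPM and did not pass (0.0990). Rmrp, of the ribonuclease MRP, had 4734, 3388, 4418 and 8132, and Rpph1, of ribonuclease P, had 9524, 8346, 10623 and 19746. All 4 were highest at 6 h, and on this scale Rn7sk, Rmrp and Rpph1 were lowest at 2 h. As CPM of all gene counts only Rmrp was lowest then. On that scale Rn7sk had 2207, 2433, 3017 and 4528 CPM and Rpph1 8129, 9444, 11476 and 18925. Vaultrc5 went otherwise, with 3.32, 0.762, 1.00 and 1.64 effective CPM, highest in the untreated library. Rnu12 had 1.58, 0.670, 1.57 and 3.19. Of the 6 such RNAs tested 1 rose and 0 fell, with a median step of 0.82 log2 from 4 to 6 h, and Rny1 and Rny3 were under 0.2 effective CPM in every library. Of 13 long non-coding snoRNA hosts tested, 4 rose (Snhg1, Snhg8, Snhg17 and Snhg20) and 0 fell, against 8.63% and 17.2% of all genes tested.

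The late step was shared with other short transcripts. Among 56 other tested genes with no annotated transcript over 300 bases, 36 of them annotated as snoRNA under names outside the rule, the median step from 4 to 6 h was 1.02 log2 and 54 moved up. Of the 56, 8 rose by the slope test and 0 fell, against 8.63% and 17.2% of all genes tested. Over 2-fold higher at 6 h were 33 of the 56, against 2.83%. The level cut that admitted the 56 includes the 6 h library, and how many pass without it was not counted. The 6 h library was also the one with the fewest counts. The part of transcript length, of library depth and of the preparation of that library in the members' late step was not tested.

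The size of the change before 6 h depended on how libraries were scaled, and that of the last step less so. From 4 to 6 h all 27 members moved up under TMM, DESeq2 size factors, total counts, ribosomal protein scaling and the authors' divisors, with medians of 1.11, 1.11, 0.93, 1.07 and 1.05 log2. At 6 h the median change from untreated under the same scalings was 1.31, 1.31, 1.48, 0.97 and 0.80 log2, and 27, 27, 27, 27 and 26 of 27 members were above the untreated level. Relative to TMM, ribosomal protein scaling moved the median gene by -0.33 log2 over 6 h and the authors' divisors by -0.52. Under each of these 2 scalings 3 members rose, Scarna2, Snora23 and Snord17, against 1.47% of all genes tested with ribosomal protein scaling and 0.720% with the authors' divisors.

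The authors' deposited table lists a half-life for each gene, and for the members these values take in the first 3 libraries alone. All 14957 half-lives that could be recomputed matched within 0.01% the inverse slope of a line through the untreated value, over 2 and 4 h, on the authors' normalized values. The authors' deposited table gives 23 of 27 members a positive half-life, from 1.94 h for Snora70 to 394 h for Snora73b, and 14 were under 10 h. The authors' deposited table gives 2.63 h for Snord22, 3.54 h for Snora68 and 4.06 h for Scarna10, which were all above the untreated level at 6 h. It is negative in the authors' deposited table for Scarna2, Snora23, Snora74a and Snord17, 14.8% of the members against 9.12% of all genes tested. With the 6 h value added to the same line, 17 of 27 were negative, and with TMM scaling over 2 and 4 h, 14 were. In the authors' deposited table the fit's R2 was under 0.5 for 9 members.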

How the data were processed

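RNA from 4 libraries of RAW264.7 cells was sequenced, and each library took its time from the treatment in its labels. The tools named are STAR 2.5.3a, Subread 1.6.3 and featureCounts, with mm10 as the build, per the submitters' processing notes. Those sources do not state the annotation release, the strand setting or how reads with several matches were treated. Raw counts per gene were used as deposited. In the normalized signal columns the authors had divided the counts of a library by 1 whole number: relative to untreated these divisors were 1.73, 3.44 and 0.575 at 2, 4 and 6 h, against 1.42, 2.49 and 0.402 for TMM effective sizes. Half-life and R2, as deposited by the authors, were treated as a score and recomputed.

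Genes with a mean CPM of at least 1 were tested with edgeR 4.0.16 in R 4.3.3 (TMM, quasi-likelihood test, Benjamini-Hochberg adjustment). The slope on time, in log2 per h, had 2 residual degrees of freedom and the quadratic term 1. The p-values measure only how far single libraries lie from a line or curve. Standard errors were derived from each test's F value. Log2 changes used a prior count of 0.5, and percentages of untreated have exact conditional binomial 95% intervals that cover counting error only. On simulated data (dispersion 0.02), slopes of 0.25 log2 per h were found in 180 of 200 genes, beside 10 false calls, and slopes of 0.5 in 200 of 200, beside 10. The simulated courses were straight and the genes independent. These counts therefore do not cover bent courses or a shift that many genes share in a single library. DESeq2 1.42.0, other scalings and filters, and leaving out each library were alternatives.

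Hosts, lengths and sequences came from GENCODE M21, to which all 147 symbols matched; coordinates are 1-based. Members named with their levels were, in the Snora and Snord classes, the 5 with the highest mean CPM (for Snord, every member), and, at a mean CPM of at least 5, those past the slope test with the lowest and highest slopes and the 2 with the smallest adjusted p of the bend, with every Scarna member and those next to the level cut. Names added for their place in a range, and the hosts singled out, were chosen after their values were seen. The members, lists and tests were chosen with earlier results of these data known.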

Additional observations from a re-analysis of the deposited data

How the results depend on the processing

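No member fell at an adjusted p under 0.05 under the alternatives run; at an unadjusted p under 0.05, 3 slopes lay below 0 without the 6 h library and 0 under the others. The members that rose are counted with the share of all genes tested in brackets. They numbered 10 with DESeq2 size factors (9.59%) and 10 of the 16 left at a mean CPM of at least 5 (10.98%). With total counts less 4 abundant genes 8 rose (3.08%), and with total counts 17 (1.91%). It was 3 with ribosomal protein scaling (1.47%) and 3 with the authors' divisors (0.720%). It was 11 without a filter (3.01%) and 12 with DESeq2's Wald test (13.7%). Without members that overlap an exon 7 of 12 rose (8.63%). Leaving out each library gave 3 to 23. The count that bent was 6 with total counts (6.43%) and 11 with DESeq2's Wald test (8.74%). It was 22 with ribosomal protein scaling (26.9%) and 20 with the authors' divisors (30.6%). Without members that overlap an exon 7 of 12 bent (19%). With the authors' divisors the median slope was 0.13 log2 per h, for Snora 0.0883 and for Snord 0.16, and the slopes of Snora33 and Snora64 were -0.019 and -0.0236. Scalings added after seeing the data moved the median change at 2 h to 0.36 log2 with total counts, and at 4 h to -0.13 with ribosomal protein scaling and -0.30 with the authors' divisors; each scaling shifts every gene of a library alike. Leaving out each library gave median slopes of 0.0437 to 0.35, for Snora -0.00903 to 0.32 and for Snord 0.0832 to 0.38, and median differences from the host of -0.0309 to 0.31. It gave slopes that crossed 0 for 13 members: -0.0869 to 0.35 for Scarna10, -0.0222 to 0.32 for Snora21, -0.12 to 0.20 for Snora24, -0.0255 to 0.27 for Snora26, -0.0514 to 0.10 for Snora33, -0.00321 to 0.32 for Snora57, -0.072 to 0.28 for Snora5c, -0.0149 to 0.13 for Snora64, -0.16 to 0.33 for Snora68, -0.43 to 0.36 for Snora70, -0.0559 to 0.41 for Snora81, -0.00781 to 0.29 for Snord118 and -0.24 to 0.36 for Snord22. The lowest value was in each case the one without the 6 h library, and the cause was not tested.

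The 6 h library limits the low members: Snora33 and Snora64, with 17 and 28 counts there, have intervals that span the untreated level. No paired analysis was possible because each time has 1 library.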
